A study of Mus musculus with 3 samples.

Results

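The cells described here are those that a gate on 2 pericyte genes, Pdgfrb and Rgs5, picked out of sections of 3 mouse mammary tumours. Cells were kept where they held 20 or more panel transcripts and had a volume of no less than 50 µm3 and no more than 3 section medians. A kept cell was a member where Pdgfrb and Rgs5 together gave at least 3 transcripts, the endothelial junction genes Pecam1 and Cdh5 together gave at most 1, and Col1a1, the fibrillar collagen of fibroblasts, made up under 15% of the panel transcripts. The gate held 9458 of 1747403 kept cells in all. It took 3976 of 619770 cells in tumour 1, 2860 of 453995 in tumour 2 and 2622 of 673638 in tumour 3. The tumours are titled MMTV-PyMT WT and form 1 group of 3 replicates, each a formalin-fixed, paraffin-embedded section read by MERSCOPE, which images single RNA molecules in place and assigns them to outlined cells. In MMTV-PyMT mice the polyoma middle T oncogene is driven by a promoter active in mammary epithelium. The labels give no treatment, and neither they nor the design text say what WT refers to or how old the animals were. The members were set against all other kept cells of the same section, and against 2 gates fixed in the same way, an endothelial gate (Pecam1 and Cdh5 together at least 3, Pdgfrb and Rgs5 at most 1, Col1a1 under 15%) and Col1a1-rich cells (Col1a1 at 15% or more, Pecam1 and Cdh5 at most 1, Pdgfrb and Rgs5 at most 2).

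Pericytes are mural cells that lie on the outside of capillaries and small venules, inside the basement membrane that they share with the endothelium. They are drawn to new vessels by PDGF-B from endothelial cells, which acts on the receptor Pdgfrb, and Notch3 on mural cells is activated by ligands of the Notch family on endothelial cells. Rgs5, a regulator of G protein signalling, marks pericytes of many tissues and of remodelling tumour vessels, while Acta2, Tagln and Myl9 belong to the contractile apparatus of smooth muscle cells and of part of the pericytes. Pdgfrb is also carried by fibroblasts, which is why the gate limits Col1a1.

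The tumour was the unit of replication (n = 3). Cells of 1 section share their slide, imaging run and animal. The members' sums that entered the fits held 573907, 472198 and 351597 transcripts in tumours 1, 2 and 3. Cell identifiers were not shared between the sections (0 in common). Blank codes, which match no gene and count false decoding, made up 0.536%, 1.16% and 0.518% of the members' transcripts, against 0.498%, 0.465% and 0.485% in other kept cells. The high value of tumour 2 came from 22 members lying within 105 by 97.4 µm, in which blanks were 26.2% to 64.8% of the transcripts. Of these 22 cells, 20 had no Pdgfrb transcript and had entered the gate on Rgs5 alone. Without cells holding 10% or more blanks, the members' share of blanks in tumour 2 was 0.529%. The total of genes called in each of the 5 comparisons of sums, as fitted over 3 tumours, stayed within 1.5 times when such cells were left out. The highest blank in the members was then at 0.920, 1.02 and 1.095 per 1000 panel transcripts outside the gate genes, against 7.16 in tumour 2 with those cells in. A member level is called under the blanks below where it did not exceed the highest blank in every tumour without those cells.

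The 2 gate genes were found together in most members. Both were detected in 60.2%, 62.5% and 64.7% of members of tumours 1, 2 and 3, Pdgfrb without Rgs5 in 31.2%, 31.3% and 28.8%, and Rgs5 without Pdgfrb in 8.65%, 6.22% and 6.48%. The median member had 3 Pdgfrb transcripts and 1 Rgs5 transcript in each tumour. Pdgfrb made up 23.8, 25.1 and 26.3 of 1000 panel transcripts in members, against 1.27, 1.09 and 0.719 in other kept cells, and Rgs5 made up 11.7, 9.93 and 11.04, against 0.619, 0.489 and 0.407. These values chose the members and describe them only. Of the cells with 3 or more Pdgfrb and Rgs5 transcripts, the limit on Pecam1 and Cdh5 removed 2641, 1545 and 586, and the limit on Col1a1 then removed 5299, 3538 and 2189, which was more than it left in tumours 1 and 2. Members had a median of 140, 157 and 127 panel transcripts, against 97, 106 and 94 in other kept cells, and a median volume of 701, 830 and 787 µm3, against 555, 671 and 621 µm3.

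Members were 0.642% of kept cells in tumour 1 (95% Clopper-Pearson interval 0.622 to 0.662), 0.630% in tumour 2 (0.607 to 0.653) and 0.389% in tumour 3 (0.374 to 0.404). The intervals cover counting error only. Over the tumours the share was 0.554% ± 0.142 (SD, n = 3), with tumour 3 below the other two. The endothelial gate took 7264, 4320 and 2804 cells, so that there were 0.547, 0.662 and 0.935 members for each endothelial gate cell. Tumour 3 thus had the lowest number of both cell classes per section and the most members per endothelial gate cell.

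At the lower edge of the gate the levels lay closer to those of the tumour's other cells. Cells with exactly 3 Pdgfrb and Rgs5 transcripts were 39.3%, 37.3% and 35.3% of members, and those with 10 or more were 13.7%, 17.9% and 10.9%. Levels are given from here on as transcripts per 1000 panel transcripts outside the 5 gate genes. Notch3, the mural Notch receptor, stood at 12.6, 15.8 and 18.6 in cells with 3 gate transcripts and at 61.9, 53.6 and 52.5 in those with 10 or more. Thy1, a surface glycoprotein of stromal and perivascular cells, stood at 1.43, 1.04 and 2.004 and at 9.07, 8.33 and 9.26 in the same cells. Both genes climbed through the bins of 4 to 5 and 6 to 9 transcripts in all 3 tumours. Gata3, a transcription factor of luminal mammary epithelium, went the other way, at 34.0, 41.2 and 22.2 in cells with 3 gate transcripts and 10.5, 17.0 and 5.93 in those with 10 or more.

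Just outside the edge, in cells with 2 gate transcripts, Notch3 was at 9.79, 13.2 and 12.5, Thy1 at 0.641, 0.397 and 0.551, and Gata3 at 39.5, 48.5 and 26.2. The step from 3 to 2 transcripts was therefore in the direction of the trend within the gate. At the limit on endothelial transcripts, Dll4, a Notch ligand of sprouting endothelium, was at 2.23, 2.59 and 4.10 in members with 1 Pecam1 or Cdh5 transcript and at 4.41, 5.04 and 8.78 in cells turned away with 2. At the limit on Col1a1, Postn, a matrix protein of activated fibroblasts, was at 22.6, 23.2 and 14.7 in members with 10% or more and at 30.8, 30.4 and 15.7 in cells turned away with under 20%.

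**Figure D1:**
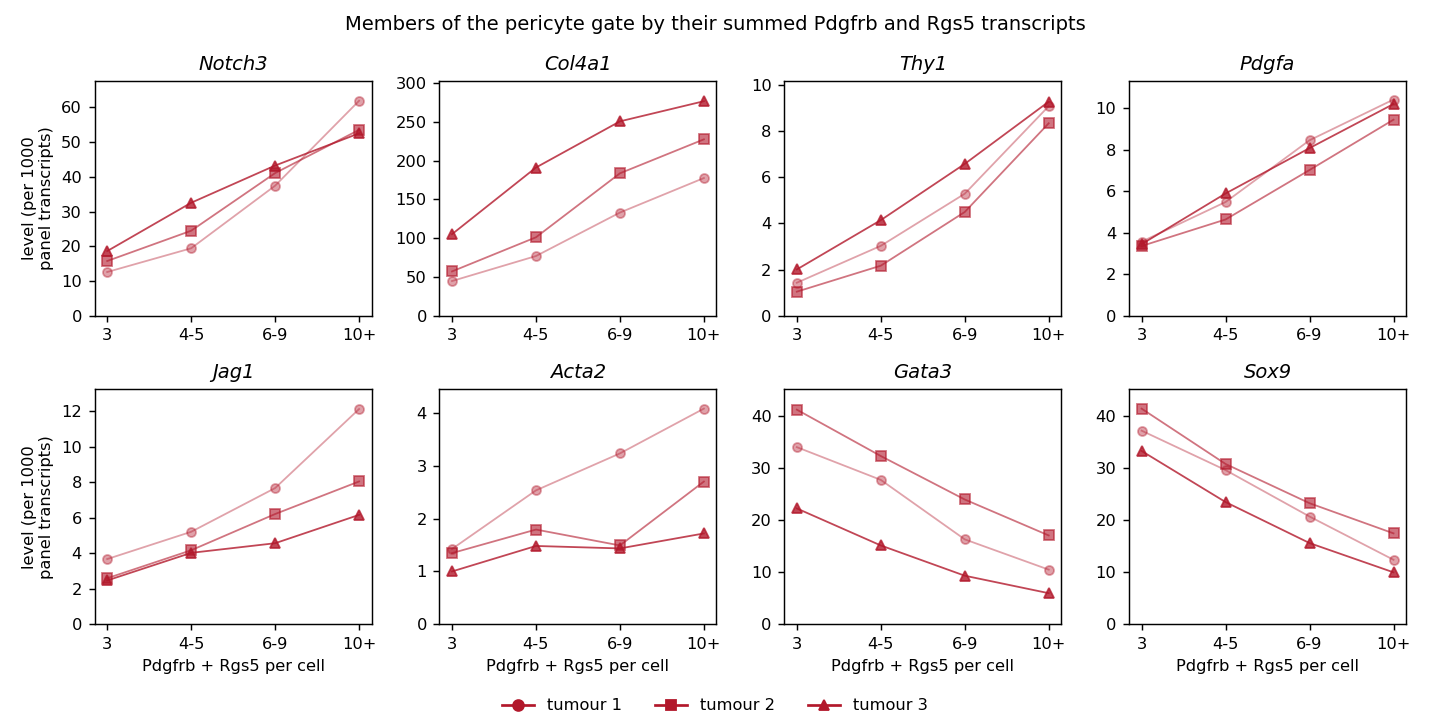
Level of 8 genes (transcripts per 1000 panel transcripts outside the gate genes, y axis from 0) in members grouped by their summed Pdgfrb and Rgs5 transcripts (x axis), 1 line per tumour. Notch3, Col4a1, Thy1, Pdgfa and Jag1 climb from bin to bin in all 3 tumours, Gata3 and Sox9 decline, and Acta2 climbs without a break in tumour 1 only.

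Set against all other kept cells, the members differed in many genes, among them matrix, contractile and epithelial ones. The matrix gene Col4a1, the surface gene Thy1, the calcification inhibitor Mgp, the contractile gene Acta2 and the receptor Notch3 were higher in all 3 tumours, and the epithelial genes Gata3, Sox9, Cldn4 and Cdh1 were lower. In the edgeR quasi-likelihood fit with tumour as a block, 58 of 253 genes were higher (22.9% of those tested) and 61 were lower (24.1%) at an adjusted p under 0.05, together 47% of the genes. All 119 had the same sign in 3 of 3 tumours. The number of calls rests on the tumours, and most of all that of the lower genes: without tumour 1 there were 27 higher and 7 lower genes, without tumour 2 there were 14 and 4, and without the block 32 and 7. Notch3, Snai1, Myl9, Tagln, Acta2, Wnt5b and Clu were called in all 15 alternatives, whereas Col4a1, Mgp, Sparc, Pdgfa and Postn were not called without tumour 2, with an adjusted p of 0.0555 for Col4a1. A gene was taken as above background where its sum exceeded that of the highest blank in every tumour in either arm. Of the called genes, 20 higher and 57 lower ones passed that test, and 25 and 57 did so once the cells rich in blanks were left out. In the members' arm itself, and without those cells, 22 higher and 48 lower genes were above the highest blank in every tumour.

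Of the mural markers on the panel, 5 lay outside the gate, and 4 of them were higher in members, beside 22.9% of all genes tested. Their median log2 change was 1.35, against -0.04 over all genes tested. Notch3 was at 25.2, 29.3 and 32.5 in members of tumours 1, 2 and 3, against 10.03, 13.7 and 11.3 in other kept cells, a log2 change of 1.33 ± 0.10 (SE, adjusted p = 0.000251). The members' levels all lay above the others' levels, and the others' levels were far from 0. Acta2, smooth muscle actin, was at 2.38, 1.75 and 1.33, against 0.655, 0.423 and 0.434 (1.85 ± 0.15). Myl9, a regulatory myosin light chain, was at 3.11, 2.92 and 1.65, against 1.16, 0.895 and 0.723 (1.46 ± 0.15). Tagln, the actin-binding protein transgelin, was at 2.50, 2.25 and 1.72, against 0.869, 0.874 and 0.790 (1.35 ± 0.13). These 3 contractile genes were lowest in tumour 3 among the members. Mylk, the kinase of myosin light chain, did not pass (0.36 ± 0.14, adjusted p = 0.071), nor did the wider actin-bundling genes Flna (0.08 ± 0.12) and Actn1 (0.0035 ± 0.12). In all, 3 of the 6 contractile genes were higher and none was lower, with a list median of 0.85. Over all genes tested 22.9% were higher and 24.1% lower, and the share in this list is not read as a result.

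Part of the fibroblast list moved with them. Of the 9 genes tested, Postn, Thy1, Sparc and Mmp2 (under the blanks in members) were higher, none was lower and the list median was 0.32. The other 5, Pdgfra, Dpt, Pi16, Clec3b and Lrrc15, were not called. Over all genes tested 47% were called, and the share in this list is not read as a result. The summed level of the list was 86.1, 78.9 and 83.6 in members, against 37.6, 31.4 and 24.9 in other kept cells, with no overlap. Sparc made up most of it, at 61.1, 55.1 and 64.6 in members, against 24.8, 21.3 and 17.8. The part of fibroblast transcripts in the higher mural and matrix genes was not tested.

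Matrix genes were among the largest differences. Col4a1, a chain of basement membrane collagen, was at 85.8, 121 and 184 in members, against 22.4, 21.5 and 26.2 in other kept cells (log2 change 2.43 ± 0.18, adjusted p = 0.000251). The level in members of tumour 3 was more than 2-fold that of tumour 1, while the other cells differed little. Sparc, a collagen-binding matrix glycoprotein, was at 61.1, 55.1 and 64.6, against 24.8, 21.3 and 17.8 (1.52 ± 0.13). Mgp, matrix Gla protein, was at 11.7, 10.7 and 8.54, against 3.36, 2.74 and 1.53 (2.09 ± 0.15). Of the 6 genes of the interstitial matrix list, Sparc, Mgp, Postn (1.29 ± 0.14), Fn1 (1.11 ± 0.23) and Tnc were higher and Thbs1 (-0.53 ± 0.14) was lower, with a list median of 1.201. The call for Fn1 was lost without tumour 1, without tumour 2, without the block and with a tighter gate (no Pecam1 or Cdh5 transcript and Col1a1 under 5%), and its change ran down to 0.49 over the alternatives. The 4 basement membrane genes were split, with a median of 0.08. Lama3 was higher with Col4a1, at a level under the highest blank, and Lama5 (-0.64 ± 0.14) and Lamb3 (-0.47 ± 0.14), laminin chains of epithelia, were lower. Among 6 matrix proteases and inhibitors 5 were higher, and Timp2 (-0.44 ± 0.10) was lower. Mmp14, the membrane-bound collagenase (0.86 ± 0.11), was above the highest blank in the members of every tumour only without the cells rich in blanks. The other higher genes, Mmp2, Mmp3, Mmp13 and Timp1, were under the blanks in members. The list median was 0.74. These counts stand beside 22.9% higher and 24.1% lower over all genes tested.

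Genes of the signalling lists were called in both directions, beside 47% of all genes tested, and the size of these shares is not read as a result. Pdgfa, a ligand of the PDGF receptors, was at 5.81, 5.44 and 6.05 in members, against 2.68, 1.95 and 1.96 (1.42 ± 0.14, adjusted p = 0.000528), and its level varied little among the 3 tumours' members. Of 11 Notch genes, 4 were higher, namely Notch3, the ligand Jag1 (1.12 ± 0.20), and the ligands Dll4 (0.73 ± 0.20) and Jag2 (0.38 ± 0.13), and 4 were lower, namely the receptors Notch1 (-0.40 ± 0.08) and Notch2 (-0.53 ± 0.09), the ligand Dll1 and the target Hey1, the last under the blanks in members, with a list median of -0.15. Dll4 and Jag2 were far higher in the endothelial gate, and the part of endothelial transcripts in their member levels was not tested. Jag1 was at 5.87, 4.604 and 3.85 in members, against 3.08, 1.47 and 2.28 in other kept cells. The call for Jag1 was lost without tumour 1 and without the block, with an adjusted p of up to 0.0767 over the alternatives. Of the 12 genes in the TGF-beta and BMP list 3 were higher and 4 lower, and the list's median change was 0.06. Of 27 Wnt genes 3 were higher, among them the secreted Wnt modulator Dkk3 (0.84 ± 0.14), and 10 were lower, among them the ligands Wnt5b (-0.90 ± 0.08) and Wnt7b, the second under the blanks in members, with a list median of -0.21. Dkk3 was not called without tumour 1, without tumour 2, without the block or with the tighter gate. Wnt7b was not called without tumour 1 or without the block.

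All 7 transcription factors of the mesenchymal transition list were higher, beside 22.9% of all genes tested, with a median log2 change of 1.30. That count and median include factors under the blanks in members, named below. Snai1 was at 1.80, 1.904 and 2.43 in members, against 0.697, 0.720 and 0.821 (1.46 ± 0.13), with no overlap of the groups. In members, Snai1 and Twist1 (1.92 ± 0.13) were above the highest blank in every tumour only without the cells rich in blanks. Foxc2, Snai2, Zeb1, Zeb2 and Prrx1 were not, so their changes rest on levels that false codes also reached. Foxc2, a forkhead factor of mural and lymphatic development, had the largest change among them (2.29 ± 0.26), with no overlap of the groups, at 0.880, 1.08 and 2.18, against 0.293, 0.198 and 0.316.

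Epithelial transcripts were lower in members but remained at a high level. Of 5 epithelial markers 4 were lower, beside 24.1% of all genes tested, and none was higher (list median -0.70). The summed level of the 5 was 72.0, 72.1 and 52.1 in members, against 114, 117 and 101 in other kept cells. Sox9, a progenitor transcription factor, was at 29.1, 31.3 and 23.5, against 49.8, 50.04 and 46.1 (-0.80 ± 0.10). Gata3 was at 26.2, 31.6 and 15.2, against 38.4, 52.3 and 27.4 (-0.70 ± 0.09), so that its groups overlapped across tumours although each tumour gave the same sign. Cldn4, a tight junction protein, stood at -0.86 ± 0.12. These calls rest on the tumours and the block. Sox9 and Cldn4 were not called without tumour 1 or without tumour 2, Gata3 was not called without tumour 2, without the block or with the tighter gate, and Cldn4 was also not called without the block or by DESeq2 (adjusted p of up to 0.234). No gene of any marker list was at 0 in the members of any tumour. The part of neighbouring epithelial cells' transcripts in these levels was not tested. Members with Pdgfrb and Rgs5 at 5 or more gave -1.26 for Gata3 and 3.10 for Col4a1, and the same sign in every named gene of this comparison.

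Few immune markers passed, beside 47% of all genes tested. Of 8 macrophage and myeloid markers, Cd14 (-0.998 ± 0.10) was lower and Adgre1 higher at a level under the blanks, and the summed level of the list was 8.91, 6.44 and 4.71 in members, against 8.54, 9.46 and 7.23 (list median 0.08). Of 6 T and NK markers only Ccl5 was called, also under the blanks. Clu, the secreted chaperone clusterin, fell by 0.84 on the log2 scale and the kinase Map3k1 by 0.76. Of 8 immediate early genes, Fos, Jun and Atf3 (the last under the blanks in members) were lower and none was higher (list median -0.19). The interferon genes Mx1, Irf7 and Irf1 were lower among 9, with Mx1 under the blanks, and Cxcl9, also under the blanks, was higher (list median -0.30). None of the 3 proliferation genes was called, with Mki67 at 8.11, 3.43 and 4.54 in members, against 8.30, 3.62 and 5.44. Lag3, an immune checkpoint gene, was also higher (1.34 ± 0.20), at 1.32, 0.934 and 1.68 in members, against 0.637, 0.456 and 0.445. Its member level was under the blanks in tumour 2. Neither Lag3 nor Map3k1 was called without tumour 1 or without tumour 2. The osteocalcin-related gene Bglap3 and the keratin Krt7 were lower, with member levels under the blanks.

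Blank codes were fitted beside the genes, and 5 of 27 were called higher in members and 0 lower. Their log2 changes ran from -0.32 to 1.43, with a median of 0.04. Part of the calls, above all the higher ones, therefore has to be read beside calls of codes that match no gene. Depth and neighbours were varied too. With both arms held to the middle range of the members' transcript counts, 70 genes were higher and 66 lower. With members near an endothelial gate cell (within 30 µm) left out, the counts were 50 and 54, and Col4a1 and Notch3 kept their calls. The tighter gate gave 35 higher and 11 lower genes.

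**Figure D2:**
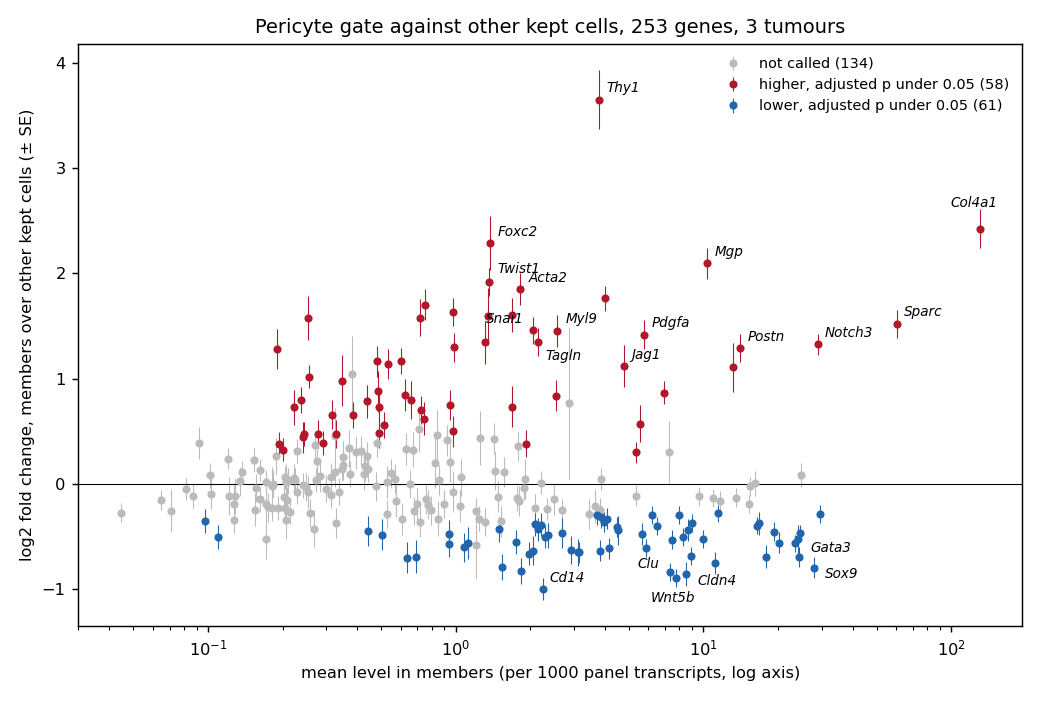
Log2 fold change of members over other kept cells (y axis, bars show SE) against the mean level in members (x axis, log scale) for 253 genes fitted over 3 tumours. Red points are the 58 higher genes, blue the 61 lower genes and grey the genes not called. Thy1 stands highest at 3.65 and Col4a1 combines a change of 2.43 with the highest level among the labelled genes.

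Against the endothelial gate, the nearest vascular class, the members differed in Notch genes on both sides. They had more of the receptor Notch3 and far less of the ligands Dll4 and Jag2. In the same kind of fit 36 of 253 genes were higher in members (14.2%) and 40 were lower (15.8%), together 30% of the genes. This count rests on tumour 2, since only 2 genes were called without it, whereas 116 were called without tumour 3. The median gene stood at 0.06, or at 0.28 when sums were scaled by their totals only, and that scaling gave 92 higher and 34 lower genes, so that small differences depend on the scaling. The members' sums are the ones used against other kept cells, and the comparisons are therefore not independent.

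Notch3 was at 25.2, 29.3 and 32.5 in members, against 4.52, 6.60 and 5.44 in endothelial gate cells (2.18 ± 0.12, adjusted p = 9.47e-05). Dll4 was at 1.18, 1.58 and 2.31, against 12.9, 13.6 and 18.7 (-3.41 ± 0.13, adjusted p = 1.63e-05). These 2 genes separated the classes without overlap in every tumour and kept their calls in all 10 alternatives. Jag2 was at 2.61, 2.05 and 1.13, against 8.45, 8.38 and 5.53 (-2.22 ± 0.14), whereas Jag1 was higher in members (0.36 ± 0.11, adjusted p = 0.0428). Among 11 Notch genes 2 were higher and 5 lower, beside 14.2% and 15.8% of all genes tested.

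Of the other 4 mural markers, Acta2 (1.38 ± 0.12), Myl9 (1.27 ± 0.12) and Tagln (0.93 ± 0.11) were higher in members than in endothelial gate cells, and Mylk was not called (0.29 ± 0.13). Mgp (1.67 ± 0.16), Postn (1.53 ± 0.14), Pdgfa (1.49 ± 0.16) and Fn1 (0.75 ± 0.14) were also higher, as was Thy1 (2.39 ± 0.19). Col4a1 and Sparc went the opposite way from the comparison with other cells. Col4a1 was at 85.8, 121 and 184 in members, against 207, 215 and 245 in endothelial gate cells (-1.06 ± 0.18), and Sparc was lower as well (-0.98 ± 0.11). Both genes were thus between the endothelial gate and the rest of the tumour in the members. The BMP target Id1 (-2.44 ± 0.25) and the phosphatase Dusp1 (-1.19 ± 0.12) were lower in members. The transcription factors Klf4 and Lef1, the Wnt receptor Fzd10 and Lag3 were also called lower, but they were above the highest blank in every tumour in the endothelial gate only, so the size of their change is not given. Klf4 was at 1.17, 0.970 and 0.785 in members, against 4.14, 3.59 and 2.43. Tead3 (0.80 ± 0.09) and Fat1 (0.68 ± 0.11), genes of the Hippo pathway, were higher. None of the 5 epithelial markers was lower in members than in endothelial gate cells, and only Wap, a milk protein at a level under the blanks, was higher.

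Against Col1a1-rich cells, the fibroblast side of the stroma, 64 of 253 genes were higher in members (25.3%) and 75 were lower (29.6%), together 54.9% of the genes. Scaling by library size alone gave 38 higher and 82 lower. Without tumour 1 the total was 79, and without the block 61. Of 27 blank codes fitted beside the genes, 1 was called higher and 6 lower, with log2 changes from -1.66 to 0.71. Part of the calls, above all the lower ones, therefore has to be read beside calls of codes that match no gene. The genes that set the members apart were Notch3, Pdgfa and Col4a1 on the higher side, and fibroblast genes on the lower side. Notch3 was at 5.47, 7.02 and 6.99 in Col1a1-rich cells, all far below the members' levels given above (2.25 ± 0.10, adjusted p = 1.28e-05). Pdgfa was higher by 1.46 ± 0.13 and Col4a1 by 1.45 ± 0.22, while its partner in the matrix Sparc was lower by 0.76 on the log2 scale (-0.76 ± 0.11).

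Of the 9 fibroblast genes tested 8 were lower in members, beside 29.6% of all genes tested. Thy1 alone was higher (1.08 ± 0.21), and the list median was -1.56 against -0.03 over all genes. Pi16, a marker of adventitial fibroblasts, was at 1.35, 0.805 and 0.324 in members, against 5.17, 9.42 and 5.38 in Col1a1-rich cells. Lrrc15, a marker of TGF-beta driven tumour fibroblasts, was at 1.85, 0.809 and 0.501, against 10.3, 4.57 and 5.20. Pdgfra, the PDGF receptor of fibroblasts, was at 1.16, 1.26 and 0.435, against 3.97, 4.54 and 2.60. In all 3 genes the classes did not overlap, but the members' level was under the blanks in at least 1 tumour, so that neither the size of the change nor the order of the tumours can be read from it. The matrix genes Fn1 (-1.37 ± 0.10), Postn (-1.13 ± 0.14) and Tnc (-1.81 ± 0.20) were lower in members too. The protease Mmp3, the chemokine Ccl2 and the leukocyte genes Csf3r and Prf1 were called lower with member levels under the blanks. Of the 75 lower genes, 12 were above the highest blank in the members of every tumour without the cells rich in blanks. Since Col1a1 set both classes apart by rule, the direction of genes that accompany it is not independent of the choice.

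Of the contractile genes, Acta2 (1.16 ± 0.16), Myl9 (0.89 ± 0.15), Flna (0.34 ± 0.09) and Actn1 (0.62 ± 0.09) were higher in members than in Col1a1-rich cells, Mylk was lower (-0.35 ± 0.12), and Tagln was not called (-0.06 ± 0.15). Jag1 (0.85 ± 0.11), Mgp (0.68 ± 0.15), the nuclear receptor Nr4a1 (1.01 ± 0.11), the Hippo effector Tead2 (0.94 ± 0.10) and the cyclin Ccnd1 (0.78 ± 0.10) were also higher. Mki67 (0.67 ± 0.11) and Top2a (0.73 ± 0.12), genes of cycling cells, went with Ccnd1. All 5 epithelial markers were called higher in members as well, beside 25.3% of all genes tested, with Wap under the blanks in members. Among them were Gata3 (0.36 ± 0.12) and Sox9 (0.44 ± 0.15). In tumour 3, however, the levels of both were lower in members before TMM scaling (15.2 against 16.1 for Gata3, and 23.5 against 24.2 for Sox9). The part of epithelial transcripts in the higher proliferation genes was not tested.

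**Figure D3:**
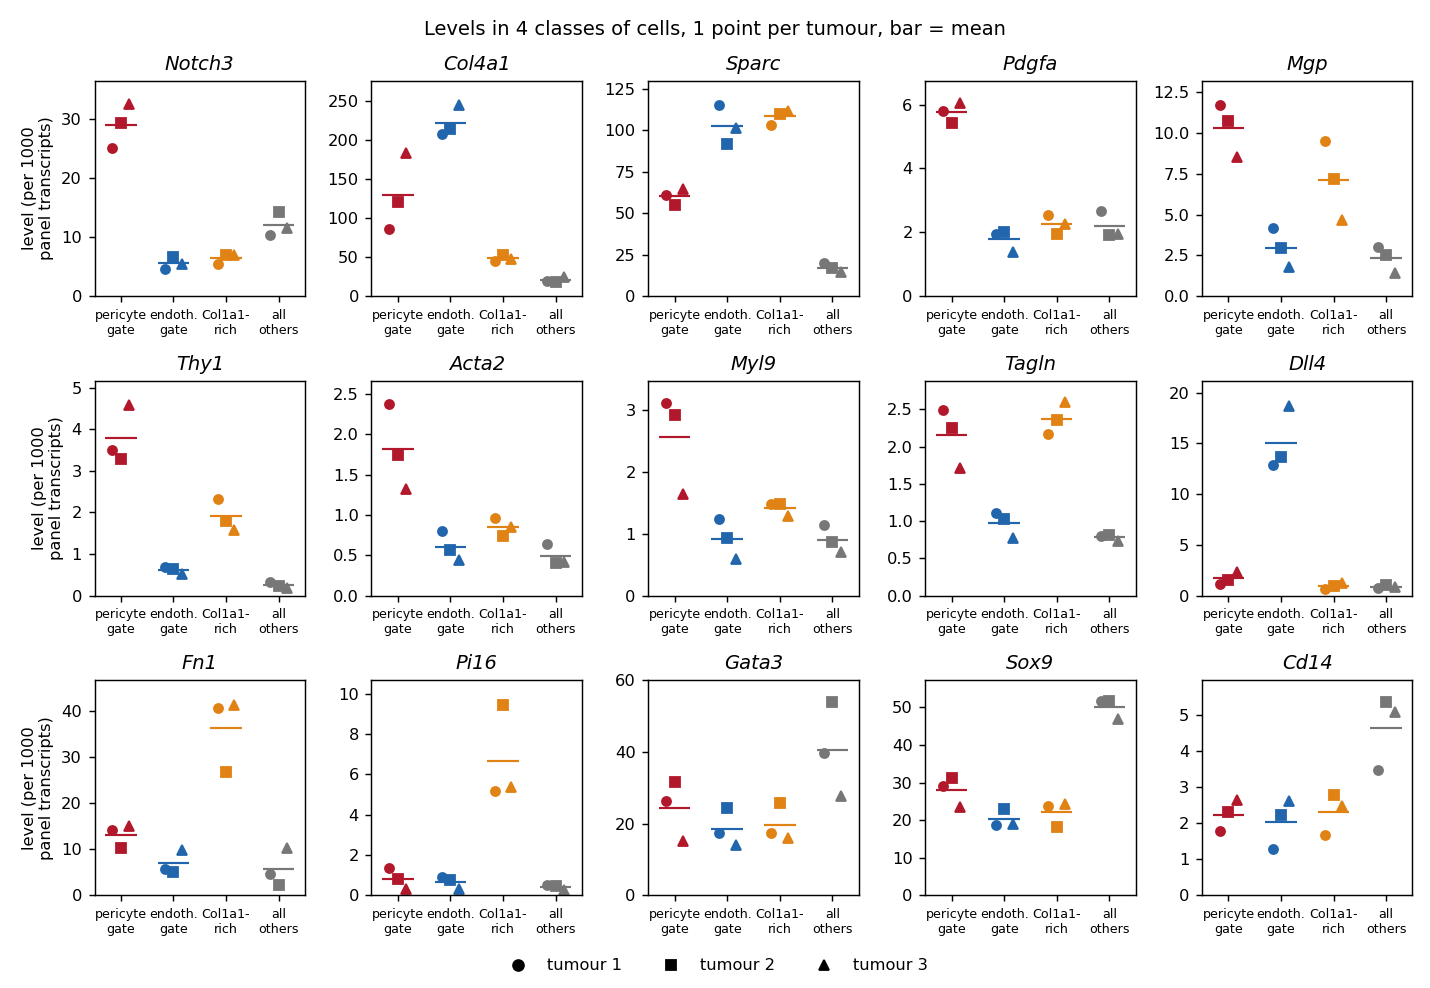
Levels of 15 genes (transcripts per 1000 panel transcripts outside the gate genes, y axis from 0) in the pericyte gate, the endothelial gate, Col1a1-rich cells and all cells outside these 3 classes and outside a macrophage gate on Adgre1 and Cx3cr1. Each point is 1 tumour and each bar the mean of 3. Notch3 and Pdgfa are highest in the pericyte gate in every tumour, Dll4 in the endothelial gate, Pi16 and Fn1 in Col1a1-rich cells, and Gata3, Sox9 and Cd14 in the remaining cells.

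The 5 genes most like Pdgfrb and Rgs5 were found across 5 classes (the 4 of the plot of levels by class and the Adgre1 and Cx3cr1 cells) and 3 tumours, among genes above the highest blank in members without the cells rich in blanks. They were Acta2 (Pearson r of log2 levels 0.94 over 15 points), Thy1 (0.91), Myl9 (0.90), Mgp (0.87) and Twist1 (0.80). Notch3 stood lower, at 0.72, with a level of 10.4, 14.1 and 11.5 in the cells outside all gates. The points of 1 tumour share a section, the gate fixed the members' high value, and these correlations describe the levels with no test.

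The members also varied between the tumours. Col4a1 was lowest in tumour 1 and highest in tumour 3, a coefficient of variation of 38.1% over the members. Notch3 had the same order, at 12.7%, and Acta2, Myl9 and Mgp the reverse. Other genes named here were chosen after their values were seen. Nfkb1 (0.753%), Fat1 (3.19%), Mmp14 (3.44%) and Tead3 (3.71%) varied little over the members. Krt5, a basal keratin, varied by 58.3%, at 11.5, 7.14 and 3.06 in members, against 8.23, 3.499 and 4.58 in the cells outside all gates. The macrophage gene H2-Aa, at 2.65, 1.26 and 0.395, and Cx3cr1, at 2.64, 1.45 and 0.592, were lowest in tumour 3, where both were under the blanks, and were lowest there also in the cells outside all gates. With 3 tumours of 1 group these differences have no test.

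Members lay nearer to endothelial gate cells than other cells did. Their median distance to the nearest endothelial gate cell was 33.4, 47.9 and 66.0 µm, against 46.2, 67.3 and 84.6 µm for other cells that passed neither gate, a log2 ratio of -0.44 ± 0.07 (SD, n = 3), lower in 3 of 3 tumours. Within 25 µm, endothelial gate cells made up 2.30%, 2.43% and 1.37% of the neighbours of members, against 0.917%, 0.794% and 0.325% for the other cells, a log2 ratio of 1.67 ± 0.38. The exact sign-flip permutation test over 3 tumours gave a two-sided p of 0.25 for both, the smallest this design allows. In the neighbour share the classes did not overlap. The ratio depended on the radius, at 2.35 for 15 µm and 0.88 for 50 µm. At least 1 endothelial gate cell lay within 25 µm of 38.1%, 27.8% and 20.6% of members, so that most members had none within that distance. Sections are thin slices, and vessels above or below the plane were not seen.

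The share of members among cells outside the endothelial gate fell off over a short distance. Within 10 µm of an endothelial gate cell it was 2.47%, 3.10% and 2.67%, at 10 to 20 µm it was 1.37%, 1.62% and 1.35%, and at 20 to 30 µm it was 0.685%, 0.802% and 0.637%. From 120 to 200 µm it was 0.375%, 0.375% and 0.294%. The share declined from bin to bin up to 60 to 80 µm in all 3 tumours, and their nearest bins had overlapping intervals. Among cells with no Pecam1 or Cdh5 transcript at all, members were 2.28%, 2.99% and 2.39% of those within 10 µm and 0.355%, 0.331% and 0.263% of those at 120 to 200 µm.

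**Figure D4:**
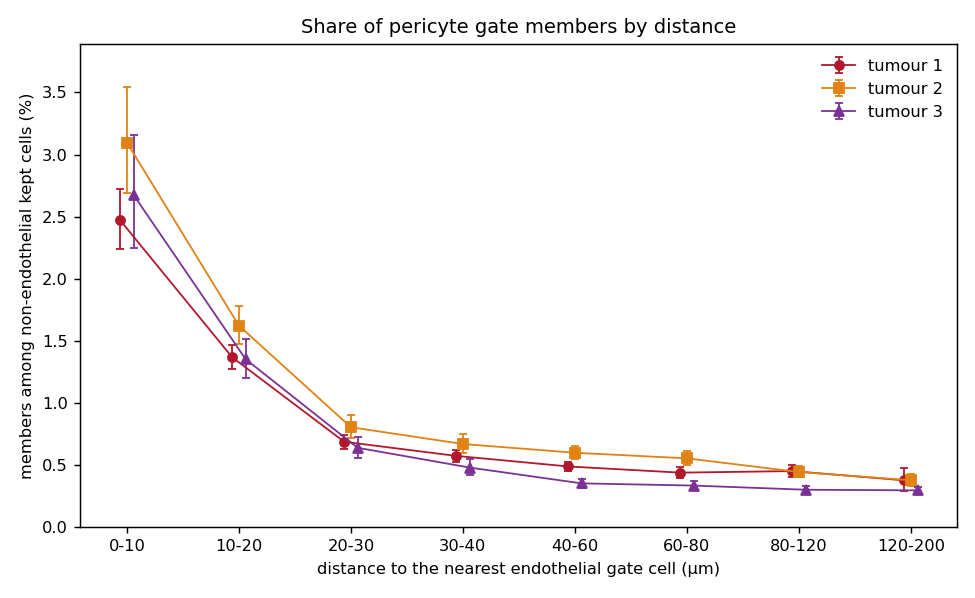
Share of members among kept cells outside the endothelial gate (y axis, percent, from 0) by distance to the nearest endothelial gate cell (x axis, µm, bins of unequal width), 1 line per tumour with 95% Clopper-Pearson intervals for counting error. The share is between 2.47% and 3.10% in the nearest bin and between 0.294% and 0.375% in the last bin shown.

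Members were close to each other as well. The nearest other member lay at a median of 36.5, 47.6 and 46.3 µm from a member, against 59.3, 78.7 and 85.9 µm from other cells (log2 ratio -0.77 ± 0.10, exact permutation p = 0.25, lower in 3 of 3 tumours). Col1a1-rich cells made up 6.37%, 8.01% and 5.04% of the neighbours of members, against 4.07%, 5.48% and 3.48% for other cells. Where at least 20% of the neighbours within 50 µm were Col1a1-rich, members were 1.004%, 0.795% and 0.420% of kept cells, against 0.371%, 0.618% and 0.373% where none was (log2 ratio 0.66 ± 0.68, exact permutation p = 0.25, and 0.27 without tumour 1). With a gate of 5 transcripts the difference was positive in 2 of 3 tumours. Col1a1-rich cells cannot be members by rule and fill part of the stroma-rich surroundings. Among the cells that are not Col1a1-rich, members were 1.64%, 1.25% and 0.694% in those surroundings, against 0.373%, 0.621% and 0.374% where no neighbour was Col1a1-rich (log2 ratio 1.35 ± 0.69, higher in 3 of 3 tumours, exact permutation p = 0.25).

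Member outlines had less edge for their area. The deposited perimeter to area ratio had a median of 0.472, 0.428 and 0.443 in members, against 0.532, 0.477 and 0.4998 in other kept cells, lower in 3 of 3 tumours (exact permutation p = 0.25). The difference on the log2 scale was -0.17 over all cells and -0.03 among cells of the members' middle range of volume. Elongation (the deposited anisotropy) was 1.32 ± 0.04 in members and 1.32 ± 0.04 in other kept cells (SD, n = 3), and lower than in the endothelial gate, at 1.36 ± 0.03, in 3 of 3 tumours.

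Members next to endothelial gate cells were compared with those far from them. Near members (centre within 20 µm) numbered 1219, 629 and 425 and far members (none within 50 µm) numbered 1218, 1389 and 1592. No gene of 252 passed (0% called), with 24 at an unadjusted p under 0.05 by edgeR, and DESeq2 called 1. Without tumour 1 it was 4 genes and without tumour 2 it was 2. Col4a1 was at 103, 139 and 227 in near members, against 85.5, 121 and 181 in far members (log2 change 0.30 ± 0.06, adjusted p = 0.201). Notch3 was at 29.2, 34.0 and 33.7, against 24.5, 27.9 and 33.9 (0.21 ± 0.07, adjusted p = 0.375). Dll4, the endothelial ligand, was at 1.44, 1.83 and 3.01, against 1.14, 1.59 and 2.26 (0.35 ± 0.11, adjusted p = 0.375). The levels of Col4a1 and Dll4 were higher in near members in 3 of 3 tumours, and that of Notch3 in 2 of 3. Each change was about 3 or more times its SE, and none passed the adjustment over 252 genes.

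Members with only 1 of the 2 gate genes were compared with each other. Members with Rgs5 and no Pdgfrb (344, 178 and 170 cells) had less of the matrix gene Fn1 than members with Pdgfrb and no Rgs5 (1240, 894 and 755 cells), and 2 of 246 genes were called (0.813%), both lower. Fn1, fibronectin, was at 8.84, 3.89 and 8.20 in Rgs5-only members, against 17.4, 11.7 and 17.6 in Pdgfrb-only members (-1.25 ± 0.16, adjusted p = 0.0406). The Rgs5-only sum of tumour 2 includes 20 of the 22 members rich in blanks. Blanks made up a larger part of its transcripts than of any other sum in this fit. The levels of tumour 2 in Rgs5-only members, here and below, are limited by this. Fn1 kept its call with those cells left out. The values of Fn1 did not overlap, but it was called in only 3 of 10 alternatives. It lost its call whichever tumour was left out, by library size alone, with no filter on low counts, with no block and with at least 5 counts of the gate gene. That last setting left 47, 23 and 19 Rgs5-only members, with 32.5% blanks in tumour 2. DESeq2 called 3 higher and 12 lower genes.

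Other genes did not pass between the 2 kinds of members. Dll4 was at 2.25, 2.31 and 3.24 in Rgs5-only members, against 0.658, 1.26 and 1.75 in Pdgfrb-only members (1.15 ± 0.27, adjusted p = 0.119), and its values did not overlap. Postn was at 10.7, 10.9 and 8.42, against 17.1, 22.3 and 12.7 (-0.79 ± 0.14, adjusted p = 0.0888). Notch3 was at 12.5, 12.3 and 15.03, against 15.03, 20.7 and 24.9 (-0.61 ± 0.16, adjusted p = 0.123). Notch3 in both kinds was below its level over all members, which in the same tumours was 25.2, 29.3 and 32.5. Acta2 (-0.18 ± 0.43), Tagln (-0.17 ± 0.29), Myl9 (-0.18 ± 0.38) and Mylk (-0.30 ± 0.32) had errors larger than or near to their differences.

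**Figure D5:**
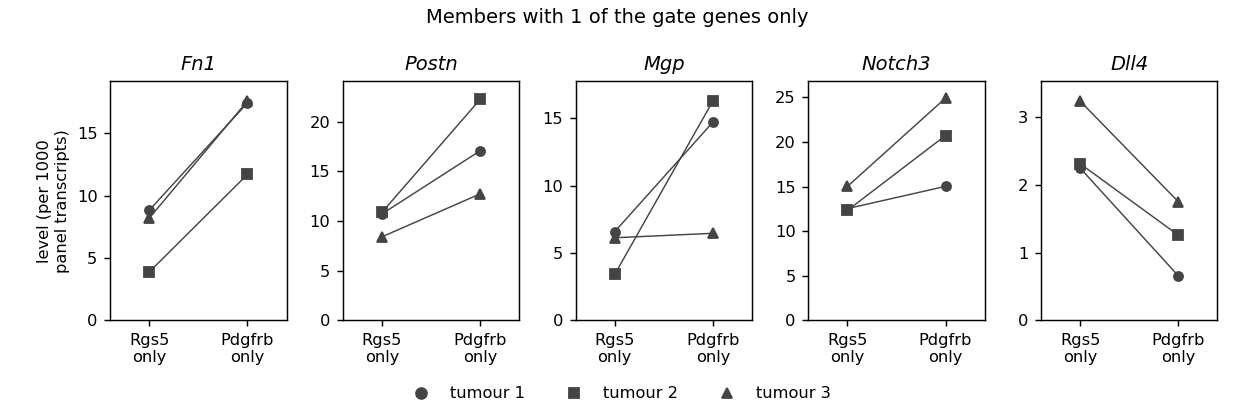
Levels of 5 genes (transcripts per 1000 panel transcripts outside the gate genes, y axis from 0) in Rgs5-only members and Pdgfrb-only members, with a line joining the 2 values of each tumour. Fn1 is lower in Rgs5-only members in all 3 tumours, Dll4 is higher in all 3, and of the 5 only Fn1 passed the test. The Rgs5-only values of tumour 2 include the cells rich in blanks.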

How the data were processed

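The authors deposited, per the file headers, raw transcript counts for every cell and gene, with no normalization, and a table of each cell's centre, volume and outline, whose unit (µm and µm3) is assumed. The design text states 265 genes, and the tables hold 258 genes and 27 blank codes. How cells were segmented is not stated. Scanpy 1.9.3 is listed in the submitters' processing notes without its role. Members and gene lists were chosen with earlier results of these data known. Counts outside the 5 gate genes were summed per tumour and class (6 sums per comparison) and tested with edgeR 4.0.16 (filterByExpr, TMM, quasi-likelihood, two-sided, Benjamini-Hochberg over all genes tested, threshold 0.05), with tumour as a block because both sums come from 1 section. DESeq2 1.42.0 was an alternative. The labels do not say whether the 3 tumours came from different animals, so p-values measure the spread between these tumours. The fit was tested on simulated data.

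Named genes were the 15 highest and 10 lowest called genes (8 and 8 for other comparisons) with 1 sign in 3 tumours and sums above the highest blank, plus the mural list and genes of the described lists. Thy1, Foxc2, Twist1 and Acta2 enter through lists. Positions were compared by sign flips over tumours in scipy 1.17.1. No doublet caller was run. Results for 1 named gene are not reported here. Volume limits removed 6401, 6530 and 4653 cells and the count minimum 36974, 53438 and 107874.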

Additional observations from a re-analysis of the deposited data

Results flagged for a closer look

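Blank-16, a code that matches no gene, was counted 3379 times in the members of tumour 2, against 182 and 126 times in the members of tumours 1 and 3. Of these counts 3248 lay in the 22 members with 26.2% to 64.8% blanks, and it drew attention because it lies outside the measured genes. Without those cells the highest blank in the members of tumour 2 stood at 1.02 per 1000 panel transcripts, against 7.16 with them.

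Col4a1, Sparc and Postn changed with distance to the endothelial gate differently in members and in other kept cells that passed neither gate. This was the interaction of distance and class in edgeR, which was added after the data were seen. The number of genes called in that fit is not given here, so these 3 genes do not show how common such differences were. The near minus far change of Col4a1 was 0.30 in members and 1.04 in other cells, a difference of -0.71 ± 0.09 (SE, adjusted p = 0.0083). For Sparc it was 0.30 in members and 0.99 in other cells, a difference of -0.65 ± 0.09 (adjusted p = 0.00928). For Postn it was -0.15 in members and 0.57 in other cells, a difference of -0.69 ± 0.11 (adjusted p = 0.0199). Each of the 3 changed less with distance in members, whose levels were higher than those of the other cells at both distances.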

How the results depend on the processing

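The order of the classes in named genes was steadier than the number of calls. Against other kept cells no named gene changed sign in 15 alternatives, and 58 higher with 61 lower genes compare with 39 calls with no replicate block, 46 with the tighter gate and 18 to 100 with 1 tumour left out. The block pairs the 2 sums of a section. Against the endothelial gate the 76 calls compare with 126 by library size alone (73.0% of them higher, against 47.4%), 29 with no replicate block and 2 to 116 with 1 tumour left out. Against Col1a1-rich cells the 139 calls compare with 61 with no replicate block and 79 to 136 with 1 tumour left out, and library size alone made 31.7% of calls higher, against 46.0%. Near against far gave 1 call by DESeq2 and 0 to 4 with 1 tumour left out. Rgs5-only against Pdgfrb-only members gave 0 calls by library size alone, 1 with no filter, 1 with no replicate block, 15 by DESeq2, 1 with at least 5 counts of 1 gene, and 0 to 1 with 1 tumour left out. The cause was not tested. Signs turned for Tagln against Col1a1-rich cells (0.022 by DESeq2, 0.26 in the middle depth range, -0.22 to 0.15 with 1 tumour left out), for near against far members with 1 tumour left out in Acta2 (-0.053 to 0.50) and Mylk (-0.099 to 0.20), and for Rgs5-only members with 1 tumour left out in Acta2 (-0.48 to 0.41), Tagln (-0.35 to 0.19), Myl9 (-0.47 to 0.36) and Mylk (-0.60 to 0.062), and in Acta2 (0.41) and Myl9 (0.14) with at least 5 counts. None of these was called. The setting of at least 5 counts held only 47, 23 and 19 Rgs5-only members, and blanks were 32.5% of their transcripts in tumour 2. Endothelial neighbours gave a log2 ratio of 2.35 at 15 µm, 0.88 at 50 µm and 1.47 to 1.85 with 1 tumour left out, and the distance gave -0.54 with a gate of 5. Anisotropy moved to -0.050 against the endothelial gate and 0.0071 in the middle volume range. Perimeter to area moved to -0.15 with a gate of 5, -0.029 against the endothelial gate and -0.029 in the middle volume range, and solidity to 0.00058 and -0.00032 in the same 2 settings. The stroma ratio was 1.35 with Col1a1-rich cells outside the denominator. Leaving out cells with 10% or more blanks, the interaction and the last alternatives on volume and denominator were added after seeing the data. Genes under the highest blank, and 3 tumours with a smallest exact p of 0.25, limit what these sections can show.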
